A study of Mus musculus with 6 samples.

Results

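The genes described here are 10 genes of fatty acid oxidation and its transcriptional control, namely the nuclear receptor genes Ppara, Ppard, and Pparg, the coactivator gene Ppargc1a, the carnitine palmitoyltransferase genes Cpt1a, Cpt1b, and Cpt2, and the mitochondrial β-oxidation genes Acadm, Acadl, and Hadha. They were taken by gene symbol from the 49671 genes of the deposited tables, where each symbol was found once. Expression was measured by RNA-Seq in muscle stem cells (MuSCs) sorted from the tibialis anterior (TA) muscles of female C57BL/6 mice aged 4 to 6 months, with no genetic modification stated. In all mice the TA muscles were injured by injection of 1.2% BaCl2, a salt that kills myofibers, and the cells were collected at day 3. Resolvin D1 (RvD1), a lipid mediator of the resolution of inflammation made from an omega-3 fatty acid, was given to 3 mice by daily IP injection of 100 ng, and 3 control mice received vehicle with 0.1% ethanol. Each library came from 1 mouse, with its 2 TA muscles pooled. The sort kept β1-integrin+ CXCR4+ cells and discarded cells carrying CD45, CD11b, Sca-1, or Ter119, and the sample labels add CD31 to the latter.

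PPARs are nuclear receptors that are activated by fatty acids and bind DNA as partners of retinoid X receptors. PPARα and PPARδ are known for inducing fatty acid oxidation in muscle and liver, PPARγ for its role in adipocytes, and PGC-1α (encoded by Ppargc1a) for coactivating these receptors and mitochondrial biogenesis. Long-chain fatty acids enter mitochondria through the carnitine shuttle, in which CPT1 at the outer membrane and CPT2 at the inner membrane act in sequence, and are then shortened by acyl-CoA dehydrogenases and the trifunctional protein. Quiescent MuSCs are known to rely on fatty acid oxidation and to shift toward glycolysis upon activation.

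The promoters of 9 of the 10 genes were present in the RefSeq table for GRCm38.p6, which holds 250 bases before and 50 after each annotated start (11 promoters, 3 of them for Pparg). The hexamer AGGTCA, which PPARs and related receptors recognize, was searched on both strands and occurred in 4 of the 11 promoters, belonging to Acadm, Cpt1a, and Pparg, and in 16.3% of all 32851 promoters. The direct repeat of this hexamer with 1 base of any kind between its copies, the consensus of the PPAR response element, occurred in 0 of the 11 and in 0.0396% of all promoters. The GC box GGGCGG occurred in 8 of the 11 and in 35.7% of all. The 60 bases around each AGGTCA are shown to place these matches near the start sites. Each runs 5′ to 3′ on the strand of the gene, and capitals mark the hexamer or its reverse complement TGACCT. The positions are chr3:153944834-153944893 on the minus strand for Acadm, chr19:3323180-3323239 on the plus strand for Cpt1a, and chr6:115361089-115361148 and chr6:115362313-115362372 on the plus strand for the Pparg promoters.
Acadm: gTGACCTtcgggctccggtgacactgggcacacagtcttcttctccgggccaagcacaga
Cpt1a: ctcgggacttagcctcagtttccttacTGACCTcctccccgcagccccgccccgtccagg
Pparg, upstream promoter: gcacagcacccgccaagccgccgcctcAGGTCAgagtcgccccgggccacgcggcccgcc
Pparg, next promoter: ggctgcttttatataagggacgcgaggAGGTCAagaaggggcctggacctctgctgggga
The match began at base -249 for Acadm, -94 for Cpt1a, and -28 and -9 for the Pparg promoters, counted from the annotated start. These are matches of letters in a short window, and binding was not measured.

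Libraries held between 16148026 and 28149176 expected counts, so that 3 counts correspond to between 0.107 and 0.186 CPM, and this limit covers counting error only. CPM expresses a count relative to the depth of its library. Myogenic transcripts were abundant in every library, with Myog, a differentiation factor, at a mean ± SD of 1073 ± 269 TPM in the 3 RvD1 libraries and of 881 ± 81.8 TPM in the 3 vehicle libraries, and Des at 604 ± 37.8 TPM and 580 ± 56.7 TPM. Expression of all 13 myogenic markers summed to 4243 to 5098 TPM with RvD1 and 3987 to 4340 TPM with vehicle. TPM is scaled for transcript length, so that levels of different genes can be compared. The summed level of 20 leukocyte markers was 54.1 to 82.3 TPM with RvD1 and 71.4 to 120 TPM with vehicle. None was at 0 in all libraries. Of the 17 tested, 16 were lower with RvD1 (Lyz2, a macrophage lysozyme, at means of 23.4 and 45.9 TPM), where 53.5% of all genes tested were higher. In the edgeR test given below, 4 of the 17 had an unadjusted p under 0.05, all lower, beside 3.47% of all genes. None had an adjusted p under 0.05. After TMM normalization the groups did not overlap for 4 of the 17, beside 9.62% of all genes. The 11 endothelial markers summed to 21.2 to 29.5 TPM with RvD1 and 14.1 to 41.5 TPM with vehicle. Of these 11, 9 were lower, and 0 had an unadjusted p under 0.05. The part of these cells in the levels below was not tested. The summed level of 11 fibro-adipogenic markers was 2277 TPM in RvD1 replicate 1 and 974 to 1331 TPM in the other libraries. The 5 erythroid markers summed to 5.16 to 51.8 TPM over the libraries. Of 8 adipocyte markers, which summed to 51.0 to 73.7 TPM mostly through Lpl and Fabp4, Lep, Cidec, Cfd, and Retn had 0 counts in every library, and Adipoq averaged 0.5 counts.

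The levels of the 10 genes spanned over 2 orders of magnitude. The enzymes were high, with Acadl at a mean of 257 TPM over the 6 libraries, followed by Acadm (68.9 TPM), Hadha (68.0 TPM), Cpt1a (61.7 TPM), and Cpt2 (41.0 TPM). The regulators and Cpt1b were low, with Ppargc1a at 4.90 TPM, Pparg at 3.91 TPM, Cpt1b at 3.05 TPM, Ppara at 1.55 TPM, and Ppard at 0.590 TPM. The percentile of the TPM, averaged over the libraries, was 98.5 for Acadl and between 91.5 and 94.5 for Acadm, Hadha, Cpt1a, and Cpt2. It was taken among all 49671 genes of the tables, of which 22860 were at 0 in every library. In this order, Acadl lay above Acadm, Cpt1a above Cpt2, and Cpt2 above Ppargc1a with no overlap between libraries. Acadm was higher than Hadha in 3 of 6 libraries, Hadha higher than Cpt1a in 4 of 6, Ppargc1a higher than Pparg in 4 of 6, and Pparg higher than Cpt1b in 5 of 6, so these neighbors were not separated beyond their spread. Ppara was higher than Cpt1b in 1 library and higher than Ppard in all 6, although the ranges of Ppara and Ppard over the libraries overlapped.

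**Figure D1:**
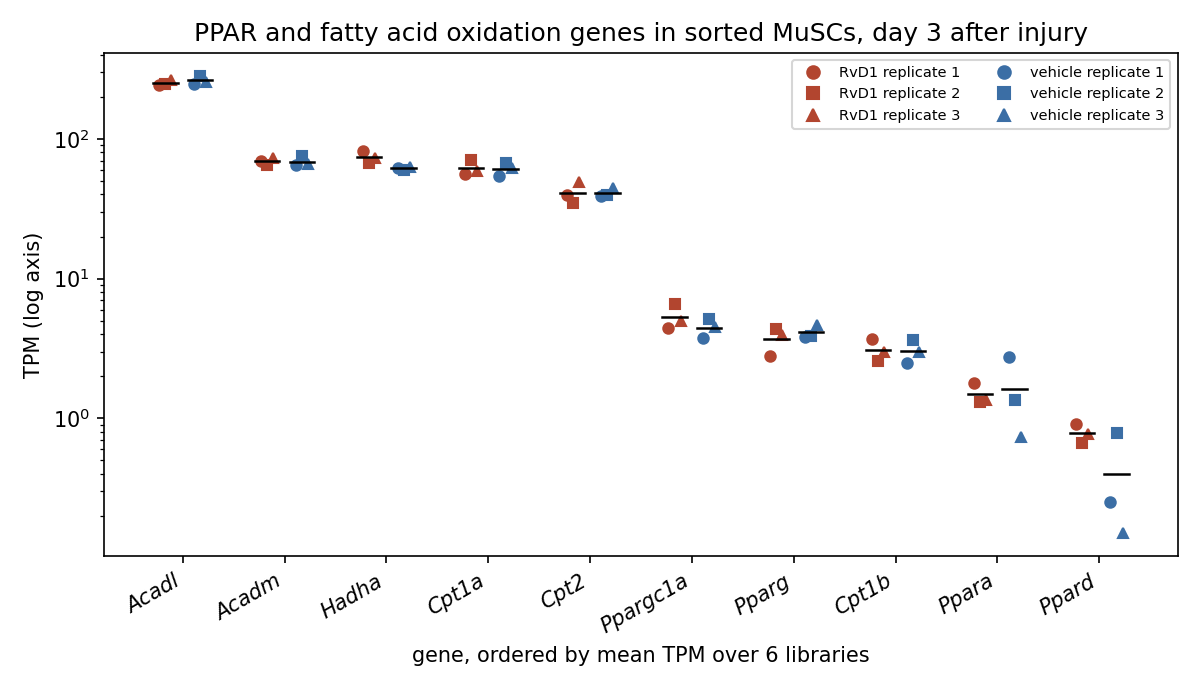
TPM (log axis) of each gene in each of the 6 libraries, with genes ordered by mean TPM; symbols give the replicate, colors the treatment, and black bars the mean of 3 libraries. The 5 enzymes from Acadl to Cpt2 lie between 34.9 and 282 TPM and the other 5 genes between 0.15 and 6.61 TPM, and the treatments overlap for 9 of the 10 genes, with Hadha as the exception on this scale.

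Treatment was compared with edgeR's quasi-likelihood test on expected counts, fitted to 14494 genes, in which all 10 genes had enough counts to be tested. After Benjamini-Hochberg adjustment, edgeR placed 0 of the 10 genes and 0% of all tested genes below 0.05. Among the 10, the lowest adjusted p was 0.971. DESeq2 and limma-voom without surrogate variables also gave 0 of the 10. At an unadjusted p under 0.05 there were 0 of the 10 genes, beside 3.47% of all genes. After TMM normalization of the CPM, the groups overlapped for each of the 10 genes, whereas they did not overlap for 9.62% of all genes. The log2 fold change (RvD1 over vehicle) was positive for 4 genes and negative for 6, where 53.5% of all genes tested were positive. Its median was -0.05 beside 0.01 for all genes tested, and it ranged from -0.24 for Pparg to 0.35 for Ppard. The median standard error was 0.18 for the 10 genes and 0.17 for all genes.

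The receptor genes had the fewest counts. Pparg (ENSMUSG00000000440, chromosome 6, 115360951 to 115490399 on GRCm38), the receptor gene of adipogenesis, was at 2.78, 4.34, and 3.95 TPM in RvD1 replicates 1, 2, and 3 and at 3.80, 3.88, and 4.68 TPM in vehicle replicates 1, 2, and 3. The lowest value was that of RvD1 replicate 1, and the other RvD1 libraries lay within the vehicle range. Its log2 fold change was -0.24 (95% interval -0.85 to 0.37, edgeR unadjusted p = 0.395). Without RvD1 replicate 1 the log2 fold change was -0.05, and without RvD1 replicate 2 it was -0.46. The library with the lowest Pparg level was also the one with the highest level of fibro-adipogenic markers, and Fabp4, a PPARγ target that is also expressed by endothelial cells, was highest in the library with the highest Pparg level (29.6 TPM in vehicle replicate 3, against 4.53 to 16.8 TPM in the others). That library also had the highest level of endothelial markers (41.5 TPM), and the part of other cell types in these values was not tested. Fewer cells of a type and less RNA per cell cannot be told apart in bulk libraries.

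Ppara (ENSMUSG00000022383, chromosome 15, 85734983 to 85802819) was covered by 42, 40, and 32 expected counts with RvD1, against 22, 29, and 19 with vehicle. Each RvD1 library had more counts than each vehicle library, but RvD1 replicates 1 and 2 were also the deepest, and after TMM normalization the groups overlapped. The log2 fold change was 0.33 with a 95% interval of -0.44 to 1.09. In TPM the values were 1.80, 1.30, and 1.36 with RvD1 and 2.74, 1.35, and 0.74 with vehicle, so that vehicle replicate 1 was the highest library although its 22 counts were among the lowest. The transcript length implied by the counts and FPKM of that library was 806 bases, against 1754 to 2199 bases in the other 5. RSEM reports a length weighted by the isoforms to which it assigns reads. With limma the difference was -0.0030 on log2(TPM + 1) and 0.06 on log2(TPM + 0.1), so on the TPM scale its sign changed with the pseudocount.

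Ppard (ENSMUSG00000002250, chromosome 17, 28232700 to 28301474), the PPAR gene that is usually described as ubiquitous, was the lowest of the 10. It had 16, 25, and 12 expected counts with RvD1 and 8, 19, and 4 with vehicle, where vehicle replicate 3 was at 0.213 CPM, close to the limit of 3 counts. The log2 fold change of 0.35 had a 95% interval of -0.93 to 1.63, which spans folds from 0.523 to 3.10. Leaving out vehicle replicate 3 turned it to -0.06 and leaving out vehicle replicate 2 raised it to 1.10. The coefficient of variation of CPM over the 6 libraries was 44.1%, where counting alone at this mean gives 26.7%.

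Of the summed TPM of the 3 receptor genes, Pparg made up 61.5% ± 9.57 (SD, n = 3) with RvD1 and 68.1% ± 14.4 with vehicle, the major share in every library. Ppara made up 25.3% ± 6.58 and 25.4% ± 13.8. Ppard made up 13.3% ± 3.03 with RvD1 (10.6% to 16.6%) and 6.50% ± 5.76 with vehicle (2.69% to 13.1%), ranges that overlap through vehicle replicate 2. These shares are descriptions without a test, and in expected counts the Ppard share was 10.3% to 13.2% with RvD1 and 3.25% to 14.7% with vehicle.

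Ppargc1a (ENSMUSG00000029167, chromosome 5, 51454250 to 51567726) was at 4.44, 6.61, and 4.98 TPM with RvD1 and at 3.73, 5.13, and 4.50 TPM with vehicle. The highest library was RvD1 replicate 2, and RvD1 replicate 1 lay below the vehicle libraries 2 and 3. Its log2 fold change was 0.20 (95% interval -0.30 to 0.71, edgeR unadjusted p = 0.384). After removal of 1 surrogate variable with limma-voom, it was 0.30 (limma unadjusted p = 0.0382, adjusted p = 0.408), in a fit where 2973 of 26518 genes had an unadjusted p under 0.05. With 2 surrogate variables removed it was also 0.30 (limma unadjusted p = 0.0127, adjusted p = 0.0928), and 6706 of the 26518 genes had an unadjusted p under 0.05. Both fits did not count the removed variables, so their p values understate the spread between mice. With 1 replicate left out the lowest value was 0.08 (RvD1 replicate 2 omitted), followed by 0.09 (vehicle replicate 1 omitted), and the highest 0.38 (RvD1 replicate 1 omitted). The 3 other genes annotated on its strand at the same place had at most 15 counts in any library. Among the PGC-1 family, Ppargc1a made up 8.91% ± 2.25 (SD, n = 3) of the summed TPM with RvD1 and 8.30% ± 2.38 with vehicle, and Pprc1, the growth-regulated member, was the most abundant at a mean of 45.9 TPM.

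The carnitine palmitoyltransferases were represented mainly by Cpt1a and Cpt2. Cpt1a (ENSMUSG00000024900, chromosome 19, 3322334 to 3385733), the isoform of liver and most other tissues, was at 56.2, 71.0, and 58.9 TPM with RvD1 and at 54.5, 67.5, and 61.9 TPM with vehicle. Replicate 2 was the highest in both groups, and the values interleaved. For Cpt1a the log2 fold change was -0.07, with a 95% interval of -0.38 to 0.25 (edgeR adjusted p = 0.975). Cpt1b (ENSMUSG00000078937, chromosome 15, 89416405 to 89425863), the isoform of mature muscle, was at 3.68, 2.59, and 2.96 TPM with RvD1 and at 2.48, 3.65, and 2.96 TPM with vehicle. Its log2 fold change was -0.05 (95% interval -0.66 to 0.55, edgeR adjusted p = 0.992) and ranged from -0.25 without vehicle replicate 1 to 0.15 without vehicle replicate 2. The gene Gm44502 is annotated as overlapping Cpt1b on the same strand, and its symbol was not found among the genes counted.

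Cpt1b made up 4.82% ± 1.31 (SD, n = 3) of the summed Cpt1a and Cpt1b TPM with RvD1 and 4.68% ± 0.401 with vehicle, a difference of 0.133 percentage points that is smaller than either spread. The ratio of Cpt1a to Cpt1b lay between 15.3 and 27.4 over the libraries. With Cpt1c, the isoform of neurons, included, Cpt1a made up 87.7% ± 4.65 with RvD1 and 88.0% ± 1.69 with vehicle. Mature myofiber transcripts were also measured in these libraries, with Acta1 at 538 ± 195 TPM in RvD1 and 431 ± 71.7 TPM in vehicle libraries (SD, n = 3 each). The 12 mature myofiber markers differed widely and had a median of 12.9 TPM. Their means over the 6 libraries ran from 1206 TPM for Eno3 to 0.0233 TPM for Myh2, with Ckm at 17.7 TPM. The part of myofiber transcripts in the Cpt1b level was not tested. Cpt2 (ENSMUSG00000028607, chromosome 4, 107903981 to 107923610) was at 39.6, 34.9, and 49.1 TPM with RvD1 and at 38.8, 39.6, and 44.2 TPM with vehicle. RvD1 libraries held both the lowest and the highest value. For Cpt2 the log2 fold change was -0.04, with a 95% interval of -0.33 to 0.25 (edgeR adjusted p = 0.983).

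The β-oxidation enzymes were measured most precisely. Acadl (ENSMUSG00000026003, chromosome 1, 66830839 to 66863277), the long-chain acyl-CoA dehydrogenase, was at 244, 248, and 262 TPM with RvD1 and at 248, 282, and 257 TPM with vehicle. Acadm (ENSMUSG00000062908, chromosome 3, 153922357 to 153944632), the medium-chain enzyme, was at 69.4, 64.9, and 72.4 TPM with RvD1 and at 65.4, 75.2, and 66.0 TPM with vehicle. For both genes vehicle replicate 2 was the highest library and the remaining values interleaved. In edgeR the log2 fold change was -0.14 for Acadl (95% interval -0.36 to 0.07, edgeR unadjusted p = 0.159, the smallest of the 10) and -0.13 for Acadm (95% interval -0.36 to 0.10). These intervals span folds of 0.780 to 1.05 and 0.782 to 1.07. Acadl exceeded Acadm by 3.52 to 3.90 times in the 6 libraries, with a mean ratio of 3.66 ± 0.158 (SD, n = 3) with RvD1 and 3.82 ± 0.0730 with vehicle.

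Hadha (ENSMUSG00000025745, chromosome 5, 30118304 to 30155162), which encodes the α-subunit of the trifunctional protein, was at 82.3, 67.1, and 73.5 TPM with RvD1 and at 62.4, 59.7, and 63.4 TPM with vehicle. All RvD1 values were above all vehicle values in TPM, the only such case among the 10 genes, and on this scale the groups did not overlap for 11.4% of the 14494 genes. In CPM after TMM normalization the values were 102, 94.2, and 105 with RvD1 and 94.3, 101, and 89.0 with vehicle, which overlap. For Hadha the log2 fold change was 0.08 in edgeR (95% interval -0.13 to 0.29) and 0.26 with limma on log2(TPM + 1), with unadjusted p = 0.0299 and adjusted p = 0.893 from limma. In that limma fit the median of all genes was 0.07, and 901 of 20329 genes had an unadjusted p under 0.05. The transcript length implied for Hadha was 2118, 2256, and 2384 bases in the RvD1 libraries and 2449, 2624, and 2165 bases in the vehicle libraries. For Acadl the implied length was 1847 bases in every library. Hadhb, which encodes the β-subunit of the same complex, was at 199 to 238 TPM with RvD1 and 209 to 216 TPM with vehicle. In TPM the ratio of Hadha to Hadhb was 0.351 ± 0.0559 (SD, n = 3) with RvD1 and 0.289 ± 0.0116 with vehicle. Its ranges, 0.308 to 0.414 and 0.276 to 0.298, did not overlap. The ratio was not tested, and it rests on the same Hadha TPM values, so it is not separate from them.

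**Figure D2:**
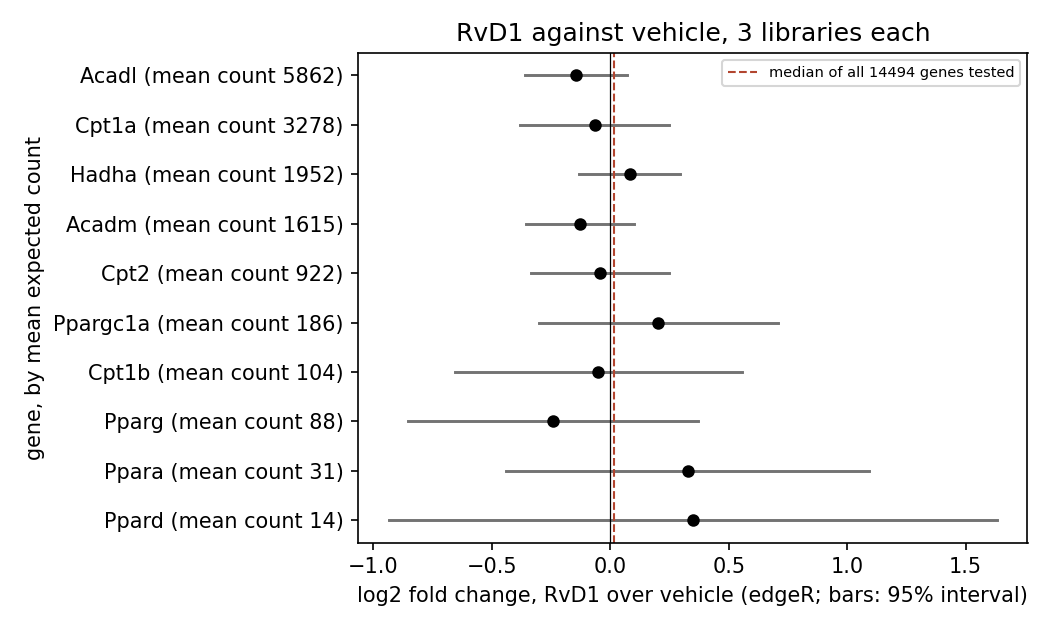
Log2 fold change of each gene, RvD1 over vehicle, from edgeR with 3 libraries per group; points are estimates, bars 95% intervals, and the dashed line the median of all 14494 genes tested. All 10 intervals include 0, from Acadl at the highest mean count (-0.36 to 0.07) to Ppard at the lowest (-0.93 to 1.63).

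The intervals were widest for the genes with the fewest counts. For Acadl, with a mean of 5862 expected counts, the coefficient of variation of CPM over the 6 libraries was 6.81%, and for Acadm and Hadha it was 7.08% and 7.30%. Counting alone gives 1.31% to 2.49% at the means of these 3 genes, less than their spread between libraries. Ppara, with a mean of 30.7 counts, varied by 22.1%, where counting gives 18.1%. Among these genes, a change of 1.5-fold lay outside the 95% interval for Cpt1a, Cpt2, Acadm, Acadl, and Hadha, whose bounds reached folds of 0.769 and 1.23. For the other 5 genes such a change lay inside the interval in at least 1 direction.

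The 10 genes lay at different heights in vehicle replicates 1 and 2. Measured as log2 CPM relative to the mean of the 6 libraries, all 10 genes were above their own mean in vehicle replicate 2 and 0 of 10 in vehicle replicate 1, while 50.5% and 52.6% of all genes tested were above theirs in these libraries. The median deviation of the 10 genes was 0.17 in vehicle replicate 2, -0.10 in vehicle replicate 1, and -0.11 in RvD1 replicate 1. In the RvD1 libraries, 4, 4, and 5 of the 10 genes were above their mean, and in vehicle replicate 3, 6 were. Without vehicle replicate 2 the median log2 fold change of the 10 genes was 0.08, and without vehicle replicate 1 it was -0.12. By replicate number, 5, 14, and 16 of 18 glycolysis genes were above their mean in the RvD1 group, against 5, 17, and 7 in the vehicle group. Other genes of mitochondrial β-oxidation differed from the 10 in vehicle replicate 1, where 12 of 20 were above their mean.

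**Figure D3:**
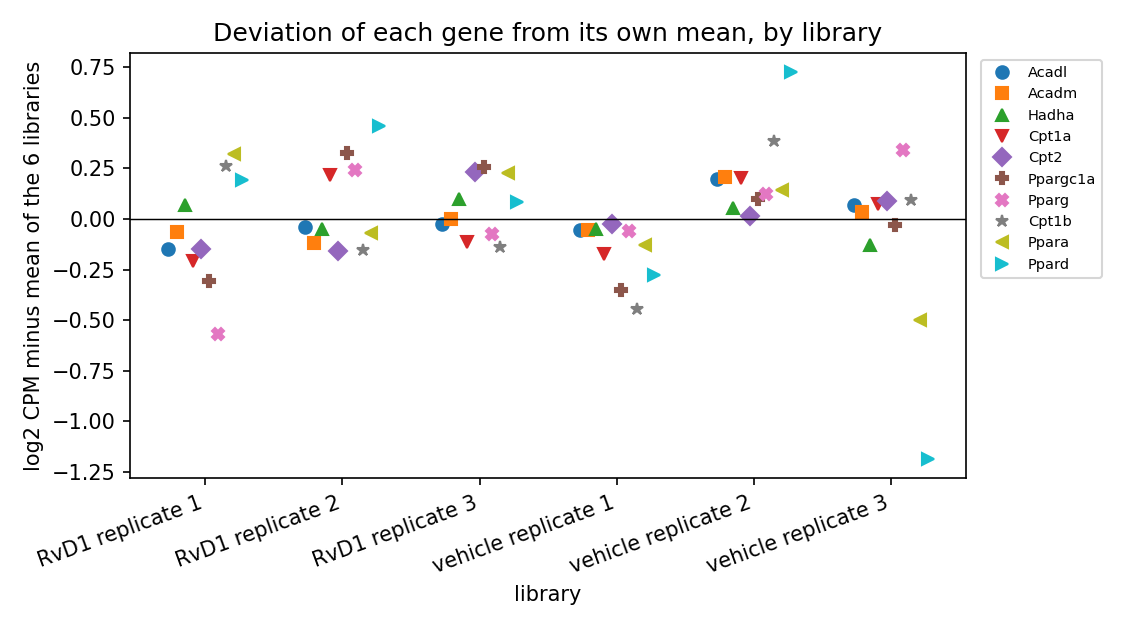
Log2 CPM of each gene minus its mean over the 6 libraries, by library; each symbol is 1 gene. All 10 symbols lie above 0 in vehicle replicate 2 and below 0 in vehicle replicate 1, and the RvD1 libraries hold values on both sides.

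The other genes of the pathway were taken from 8 lists, which together hold 121 further genes, 108 of them with enough counts to be tested. None had an adjusted p under 0.05 from edgeR. An unadjusted p under 0.05 was seen for 2 of the 108, beside 3.47% of all genes, and the groups did not overlap for 16 (6 higher and 10 lower with RvD1), beside 9.62% of all genes. Of the 108 genes, 51 had a positive and 57 a negative log2 fold change, where 53.5% of all genes tested were positive. The median of the 108 was -0.02.

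Among 20 tested partners and coregulators of PPARs, 0 had an unadjusted p under 0.05 and the median log2 fold change was 0.09. Of these 20, 14 were positive and 6 negative, where 53.5% of all genes tested were positive. The median was -0.0097 without vehicle replicate 3 and -0.0028 without RvD1 replicate 1, so its sign rests on these libraries. The retinoid X receptor genes Rxra and Rxrb were both at a mean of 20.2 TPM, well above the PPAR genes, whereas Rxrg was at 1.71 TPM. Ncor1, a corepressor, had the highest level (101 ± 8.74 TPM with RvD1 and 96.0 ± 5.67 TPM with vehicle, SD, n = 3). Nrip1, a corepressor of oxidative genes, was at 22.79, 20.03, and 18.92 TPM with RvD1 and at 14.5, 16.7, and 18.0 TPM with vehicle. The Nrip1 groups did not overlap, but the log2 fold change of 0.19 did not pass the test (edgeR unadjusted p = 0.0916, adjusted p = 0.971). Ncoa2, a coactivator, differed by 0.24 on the log2 scale (standard error 0.15).

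Of 24 genes known as PPAR targets, 16 were tested, with a median log2 fold change of -0.05 and 0 with an unadjusted p under 0.05. Targets shared by many tissues were well expressed, among them Angptl4, an inhibitor of lipoprotein lipase, at a mean of 134 TPM, Plin2, a lipid droplet coat protein, at 95.1 TPM, and Pdk4, which restrains pyruvate oxidation, at 53.5 TPM. Their log2 fold changes were -0.04, -0.02, and -0.13. The adipocyte and brown fat targets Adipoq, Plin1, Cidec, and Cidea averaged under 2 counts. Tsc22d1 was the highest of the list (500 ± 52.4 TPM with RvD1 and 488 ± 29.5 TPM with vehicle, SD, n = 3). Txnip, which restrains glucose uptake, differed by a log2 fold change of 0.64 (95% interval -0.23 to 1.51), and its high value was that of 1 library, RvD1 replicate 1 (45.2 TPM, against 14.1 to 20.2 TPM in the others).

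Uptake and activation of fatty acids was covered by 15 tested genes, with a median log2 fold change of -0.08. Acsbg1, an acyl-CoA synthetase, was at 4.44, 4.67, and 4.06 TPM with RvD1 and at 2.85, 2.09, and 3.29 TPM with vehicle. The Acsbg1 groups did not overlap, and its log2 fold change was 0.77 (95% interval 0.31 to 1.23, edgeR unadjusted p = 0.00439, adjusted p = 0.971), which did not pass after adjustment over all genes. Dbi, the acyl-CoA binding protein, was the most abundant of the list at 578 ± 7.84 TPM in RvD1 and 610 ± 5.92 TPM in vehicle libraries (SD, n = 3 each), with a log2 fold change of -0.17 (edgeR unadjusted p = 0.0734). Cd36, a fatty acid transporter that endothelial cells and macrophages also express, was at a mean of 7.60 TPM.

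The 14 genes of the carnitine shuttle and of malonyl-CoA control, the metabolite that inhibits CPT1, had a median log2 fold change of -0.01. Acaca, which makes malonyl-CoA for lipid synthesis, was at 10.4, 8.96, and 7.61 TPM with RvD1 and at 7.94, 7.79, and 6.10 TPM with vehicle, and had a log2 fold change of 0.24 (edgeR unadjusted p = 0.0826). Acacb, the mitochondrial form, differed by 0.79 on the log2 scale (standard error 0.43), with 3.36 TPM in RvD1 replicate 1 and 0.82 to 1.91 TPM elsewhere. Prkag1, a subunit of the AMP-activated kinase, was the highest of the list at 80.0 ± 8.18 TPM in RvD1 and 78.5 ± 3.39 TPM in vehicle libraries (SD, n = 3 each). Slc25a20, the carnitine-acylcarnitine carrier between CPT1 and CPT2, was at a mean of 34.5 TPM and differed by -0.12 on the log2 scale (standard error 0.13).

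The remaining 20 genes of mitochondrial β-oxidation had a median log2 fold change of -0.13, beside 0.01 for all genes. Where 53.5% of all genes tested were positive, 5 of the 20 were positive and 15 negative. None passed the test at an adjusted or an unadjusted p under 0.05 in edgeR. The groups did not overlap for 5 of the 20 (Echs1, Eci2, Acaa2, Etfa, and Hsd17b10, all lower with RvD1), where 9.62% of all genes did not overlap in either direction. Eci2, an enoyl-CoA isomerase, was at 74.2 ± 5.36 TPM in RvD1 and 81.6 ± 4.12 TPM in vehicle libraries (SD, n = 3 each), a log2 fold change of -0.21 (edgeR unadjusted p = 0.0521). Acaa2, the thiolase of the last step, was at 186 ± 6.00 TPM and 208 ± 21.8 TPM, a log2 fold change of -0.24 (edgeR unadjusted p = 0.0628). Etfa, which passes electrons from the dehydrogenases to the respiratory chain, was the highest of the list at 268 ± 4.69 TPM and 285 ± 14.7 TPM. The median of the list stayed negative under every alternative tried and ranged from -0.15 without vehicle replicate 3 to -0.06 with limma on log2(TPM + 1), a scale on which the median of all genes was 0.07. By replicate number, 8, 3, and 6 of the 20 genes were above their own mean in the RvD1 group, against 12, 16, and 13 in the vehicle group.

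Peroxisomal β-oxidation (12 tested genes) had a median log2 fold change of 0.02, with Ehhadh, the bifunctional enzyme and a PPARα target, at 0.61 (95% interval -0.21 to 1.44) from a mean of 33.3 counts, Hsd17b4 at -0.12 (standard error 0.09), and Scp2, the most abundant, at 181 ± 24.6 TPM in RvD1 and 184 ± 0.876 TPM in vehicle libraries (SD, n = 3 each). Lipolysis and lipid droplet genes (8 tested) had a median of 0.03. Within that list, Dgat2, which makes triglyceride, had a log2 fold change of -0.21, G0s2, an inhibitor of lipolysis, 0.28, and Pnpla2, the triglyceride lipase, -0.04. Ketone body genes (6 tested) had a median of -0.10. Acat1, a thiolase that also takes part in isoleucine breakdown, was the highest of that list at a mean of 97.9 TPM, and differed by -0.06 on the log2 scale (standard error 0.09).

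**Figure D4:**
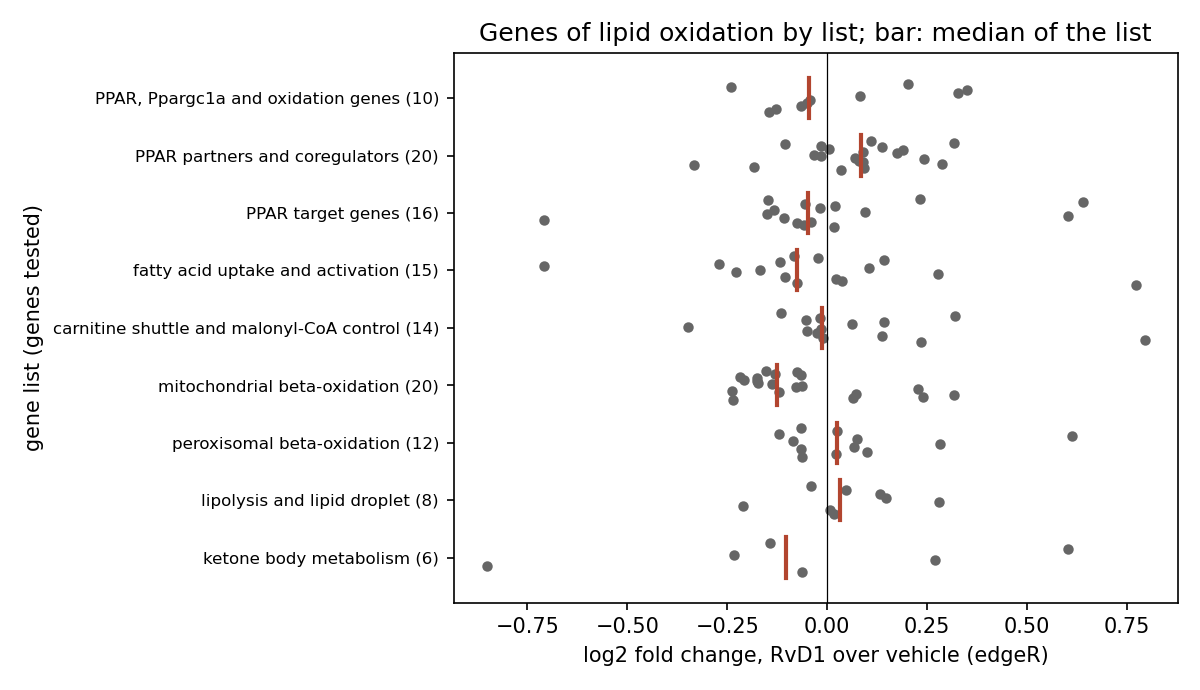
Log2 fold change, RvD1 over vehicle, of each tested gene (points) in the 10 genes and in 8 further lists of lipid oxidation, with the number tested in parentheses and the median of each list as a red bar. The medians lie between -0.13 for mitochondrial β-oxidation and 0.09 for PPAR partners and coregulators, and no gene shown had an adjusted p under 0.05.

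Genes of glycolysis and of fatty acid synthesis were set beside these lists. The 20 further genes of mitochondrial β-oxidation had a median of 75.9 TPM. The 10 genes, which include the low receptor genes, Ppargc1a, and Cpt1b, had a median of 23.0 TPM. The 18 glycolysis genes had a median of 566 TPM and a median log2 fold change of -0.05. For 11 genes of fatty acid synthesis these medians were 44.9 TPM and 0.05. In the glycolysis and fatty acid synthesis lists 0 genes had an unadjusted p under 0.05 in edgeR. The order of Cpt1a above Cpt1b held in all 6 libraries, as did that of Pparg above Ppara and Ppard.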

How the data were processed

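RNA was sequenced as 76-bp single-ended reads from SmartSeq v4 and Nextera XT libraries. Alignment to mm10 used STAR 2.5.0a, and RSEM served for quantification. Expected counts were deposited as estimated, without depth scaling. For TPM and FPKM the authors corrected for both length and library size. The annotation and the use of strand in counting are not given in the sources used here. A stray header line was removed, leaving 49671 genes, of which 22860 were at 0 in every library.

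Expected counts were rounded and tested with edgeR 4.0.16 (TMM, filterByExpr, quasi-likelihood test, treatment only) in R 4.3.3, with Benjamini-Hochberg adjustment over 14494 genes. Standard errors and 95% intervals were computed from the fold change and its test statistic. Log2 CPM used a prior count of 2. P values measure the spread between mice, with 3 per group, except where surrogate variables were removed. Those variables were taken out of the values before the fit and were not counted in its design. The p values of these fits therefore understate the spread between mice. Median log2 fold changes and shares were not tested. Alternatives were DESeq2 1.42.0, limma 3.58.1 with and without surrogate variables from sva 3.50.0, TPM with pseudocounts of 1 and 0.1, FPKM with a pseudocount of 1, other scaling factors and filters, a replicate block, and each library left out in turn. Gene positions came from GENCODE M21 (GRCm38) and promoters from RefSeq.

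The 10 genes and the lists were chosen with earlier results of these data known. All 10 genes were named, together with the 2 genes of the smallest p and the 1 of the highest TPM in each list, and up to 3 abundant or absent markers of each cell type. Some genes covered by this rule are not reported here. Other genes named were chosen after their values were seen.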

Additional observations from a re-analysis of the deposited data

How the results depend on the processing

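Alternatives were those listed in the processing summary, and the medians of the pathway lists under them were added after seeing the data. The number of the 10 genes past an adjusted p of 0.05 was 0 under every setting. The number of pathway genes was 0 except with 2 surrogate variables removed, which gave 7 (and 1727 of all genes). That fit did not count the removed variables, so its p values understate the spread between mice. For all genes the number was 12 without a filter on low counts, 1 with log2(TPM + 0.1), and 0 to 1 with a replicate left out. The median log2 fold change of the 10 genes lay between -0.05 and 0.02 with all libraries kept and between -0.12 and 0.08 with a replicate left out, a range that crosses 0. Among the pathway lists, the median turned to 0.04 on both TPM scales for fatty acid uptake and activation and for PPAR targets. On these scales the median of all genes was 0.07 with log2(TPM + 1) and 0.09 with log2(TPM + 0.1). Of all genes, 64.5% and 64.4% were higher with RvD1 there. The list median turned to -0.0097 for PPAR partners without vehicle replicate 3, and to 0.07 for the carnitine shuttle without RvD1 replicate 2 or 3. For ketone body genes it was -0.30 without RvD1 replicate 1, and for peroxisomal genes -0.06 with 1 surrogate variable. The log2 fold change turned in sign for Cpt1a (0.0177 with 1 and 0.0337 with 2 surrogate variables, 0.0153 with log2(TPM + 1), and 0.0155 with log2(TPM + 0.1)), Cpt1b (0.0181 and 0.0239 on these TPM scales), Acadm (0.00213 and 0.00218), and Ppara (-0.00298 with log2(TPM + 1) and -0.0318 with log2(FPKM + 1)). With a replicate left out, the range was -0.20 to 0.0213 for Cpt1a, -0.25 to 0.15 for Cpt1b, -0.18 to 0.0244 for Cpt2, and -0.0583 to 1.10 for Ppard, which had too few counts to be tested with a filter at 1 CPM. The cause was not tested. Whether libraries with the same replicate number were paired was not tested. Their deviations correlated by 0.310, -0.00071, and 0.126, beside a mean of -0.0734 for libraries with different numbers. With the number as a replicate block, edgeR gave 0 calls among the 10 genes (smallest adjusted p 0.806) and a median of -0.04. The block changed no call at an adjusted p of 0.05. An unadjusted p under 0.05 was seen for 896 genes with the block and for 503 without it. Ppara, Ppard, and Pparg averaged under 100 counts. Their coefficients of variation of CPM over the 6 libraries were 22.1%, 44.1%, and 19.6%, where counting alone gives 18.1%, 26.7%, and 10.7%. Whether these gaps exceed the error of an estimate from 6 libraries was not tested.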
